A study of Mus musculus with 16 samples.

Results

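Nfia, Nfib and Nfix encode 3 of the nuclear factor I (NFI) transcription factors, and their loci were examined in peak lists of Gli2, H3K27ac and H3K36me3 from mouse medulloblastomas. The 3 loci were chosen by marked bases and Gli2 peaks of these same lists, known from an earlier look at them, so the values below are descriptions. Members were all deposited regions that touched a fixed window of mouse build mm9 around each gene: chromosome 4 at 97390001–97840000 for Nfia (450 kb), chromosome 4 at 81880001–82220000 for Nfib (340 kb) and chromosome 8 at 87200001–87360000 for Nfix (160 kb). The windows held 512 of the 209254 regions in the 6 lists on chromosomes 1 to 19, X and Y, with 244 regions at Nfia, 159 at Nfib and 109 at Nfix. The tumours were taken at postnatal day 13 from mice of 2 kinds, named in the labels SmoM2 overexpression and Sufu;Spop double knockout (DKO). SmoM2 is a constitutively active form of Smoothened, the signal transducer of the Hedgehog pathway. Sufu is a protein that restrains Gli factors, and Spop recruits the Cul3 ubiquitin ligase to them. The labels used here state neither the promoter or Cre driver behind either genotype, nor the strain, nor how many animals a library came from. Each genotype had 2 libraries per antibody and 2 of input DNA (16 libraries in all), and both libraries of an antibody share 1 deposited list. A difference between genotypes therefore has no replicate check, no p-value is given, and the depth of sequencing is unknown. Unaltered tissue is not analysed here. In bulk tumour tissue, fewer cells with a mark and less of the mark per cell cannot be told apart.

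NFI proteins bind DNA as dimers at a palindromic site and can activate or repress transcription. In the cerebellum, the granule neuron precursors from which Hedgehog-driven medulloblastoma arises proliferate in response to Sonic hedgehog, and NFI factors act in the later differentiation of granule neurons, including migration and the growth of axons and dendrites. Gli2 is the main transcriptional activator at the end of the Hedgehog pathway. H3K27ac is an acetylation of histone H3 found at active promoters and enhancers, and H3K36me3 is a methylation laid down along the bodies of transcribed genes. The whole lists set the scale for what follows. The DKO list held 9.64 times as many Gli2 peaks as the SmoM2 list (1426 and 148), its H3K27ac regions covered 1.33 times as many bases and its H3K36me3 regions 1.19 times as many. In neighbouring order in the RefSeq annotation of a later build (GRCm38.p6), Nfix overlaps the protein-coding gene Lyl1 and is followed by Dand5, Nfib lies between Mpdz and Zdhhc21, and Nfia before Tm2d1. Gene starts, exons and introns of mm9 are not analysed here, so regions in a window are placed by distance and are not assigned to 1 gene. The tissue label could not be set against marker genes for the same reason.

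Nfix was the only one of these genes whose window held a Gli2 peak in both lists, and RefSeq start sites were available for it and for Nfia (2 of the 3 genes). The 250 bases before each such site were read, for 1 site of Nfia and 4 of Nfix. They are reference sequence of GRCm38.p6, not of the mm9 build of the peaks, and no position was converted. Those before 4 of the sites are shown because they let a reader see which of them hold the core of the Gli binding site. The remaining Nfix sequence, without that core, is described below. Letters CCACCCA on either strand are in capitals. Nfix promoter A is chr8:84780083-84780332, B is chr8:84775829-84776078 and C is chr8:84773411-84773660, all on the minus strand, and the Nfia promoter is chr4:97581693-97581942 on the plus strand.
Nfix promoter A: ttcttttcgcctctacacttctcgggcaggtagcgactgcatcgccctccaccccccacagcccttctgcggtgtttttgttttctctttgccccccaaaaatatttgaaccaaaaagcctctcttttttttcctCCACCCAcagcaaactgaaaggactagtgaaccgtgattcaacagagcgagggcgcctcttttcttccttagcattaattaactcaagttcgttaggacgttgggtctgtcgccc
Nfix promoter B: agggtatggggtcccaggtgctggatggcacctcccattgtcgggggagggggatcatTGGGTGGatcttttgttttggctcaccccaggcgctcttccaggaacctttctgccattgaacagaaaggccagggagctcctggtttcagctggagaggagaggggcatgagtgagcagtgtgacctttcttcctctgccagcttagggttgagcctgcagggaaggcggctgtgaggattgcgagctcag
Nfix promoter C: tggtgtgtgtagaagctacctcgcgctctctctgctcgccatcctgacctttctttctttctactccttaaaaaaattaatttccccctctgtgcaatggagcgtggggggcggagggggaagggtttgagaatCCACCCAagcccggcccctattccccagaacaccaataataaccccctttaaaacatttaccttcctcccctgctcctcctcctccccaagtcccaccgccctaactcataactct
Nfia promoter: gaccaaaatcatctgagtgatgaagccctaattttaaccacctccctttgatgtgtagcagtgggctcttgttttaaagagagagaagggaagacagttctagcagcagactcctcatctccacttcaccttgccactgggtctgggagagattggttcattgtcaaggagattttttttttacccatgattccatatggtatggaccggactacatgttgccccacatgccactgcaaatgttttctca

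The core match began 115 bases before the start in Nfix promoter A, 192 bases before it in B and 116 bases before it in C. A further Nfix start site, chr8:84772876-84773125, had no match, nor did the Nfia promoter, from the 1 Nfia start site available. Of 32851 promoter sequences of the same length, 8.11% hold CCACCCA on either strand. The longer Gli consensus GACCACCCA, which contains that core, was in none of these 5 sequences and in 0.225% of all promoters. The letters TTGGC, one arm of the NFI site, were in Nfix promoter B and in the further Nfix sequence and in 41.5% of all promoters, and the full NFI palindrome, TTGGC and GCCAA with 5 bases between them, was in none of the 5 and in 0.0365% of all. A match describes letters in these sequences, which were not placed in the mm9 windows, and is not a binding site.

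Gli2, the Hedgehog activator, had 3 DKO peaks and 1 SmoM2 peak at Nfix, 1 DKO peak and no SmoM2 peak at Nfia, and none in either genotype at Nfib. With the DKO list limited to its highest peaks, as many as the SmoM2 list has, 1 DKO peak was left at Nfix and 0 at Nfia. With a −log10 q of at least 5, the SmoM2 peak at Nfix was lost. The highest of them lay at Nfix on chromosome 8 at 87338600–87338783, with a −log10 q of 61.3 and a fold enrichment of 22.7, and ranked 75 of 1426 in the DKO list by −log10 q. The SmoM2 peak on chromosome 8 at 87338657–87338773 lay inside it, with summits 46 bp apart. Within its own list that SmoM2 peak ranked 122 of 148 (fold enrichment 5.33, −log10 q 4.27), so the shared site was near the top of the DKO list and in the lower part of the SmoM2 list. Ranks from lists of such different length show no change between genotypes. Fold enrichment and q are the authors' values and rank peaks only within their list.

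The other DKO peaks at Nfix lay on chromosome 8 at 87233070–87233218 (fold enrichment 12.1, rank 427) and 87318537–87318763 (10.2, rank 604), above the list's median fold enrichment of 9.57. The DKO peak at Nfia, on chromosome 4 at 97617497–97617615, was weaker (8.26, rank 916) and below that median. Of the 4 DKO peaks, 1 was also in the SmoM2 list, against 5.96% of all DKO peaks. In turn, 57.4% of all SmoM2 peaks were also in the DKO list. At least 3 DKO Gli2 peaks were found in 0.437% of the 16492 consecutive 160 kb stretches of the genome, at least 1 in 15.6% of stretches of 450 kb and at least 1 in 12.2% of stretches of 340 kb. The loci were chosen with their Gli2 peaks known, so nothing is read from these shares. A window without a peak, as at Nfib, is one where none was called, which does not show absence of Gli2.

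The sites nearest to the window edges bear on these counts. A DKO Gli2 peak on chromosome 8 at 87180000–87180156 lay 19.8 kb outside the Nfix window and would make 4 there with the window widened by 50 kb on each side. For Nfib the nearest DKO peak lay 123 kb beyond the window, on chromosome 4 at 82343162–82343352, and ranked 146 in its list. For Nfia the nearest one outside was 75.2 kb away (rank 1189). The nearest SmoM2 peak outside lay 811 kb from the Nfia window and 3480 kb from the Nfix window.

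The DKO Gli2 peaks overlapped acetylated regions at Nfix, and the 1 peak at Nfia did not. All 3 DKO Gli2 peaks at Nfix overlapped H3K27ac regions of both genotypes, whereas the Nfia peak overlapped none and lay 257 bp from the nearest DKO region and 1256 bp from the nearest SmoM2 region. With regions within 1 kb counted, all 4 DKO peaks had a DKO region and 3 a SmoM2 region. The DKO region near the Nfia peak was 363 bp wide with a −log10 q of 1.32, rank 28838 of 29504, near the bottom of its list. The share of all DKO peaks within 1 kb of a region is not given. H3K27ac covered 42.3% (SmoM2) and 57.2% (DKO) of the Nfix window and 10.7% and 11.7% of the Nfia window. What part of the overlap goes with that cover was not tested. Over the whole DKO list, 53% of Gli2 peaks overlapped H3K27ac of DKO tumours and 48.9% that of SmoM2 tumours. The peak shared by both genotypes sat in an H3K27ac region of 2354 bp (DKO) and 2207 bp (SmoM2). The DKO peak at 87318537–87318763 sat in a far wider one, of 37646 bp (DKO) and 8592 bp (SmoM2), and that at 87233070–87233218 in regions of 12866 and 3999 bp. None of the 4 DKO peaks overlapped H3K36me3 of either genotype, against 2.31% of all DKO Gli2 peaks in H3K36me3 of DKO tumours and 2.66% in that of SmoM2 tumours.

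**Figure D1:**
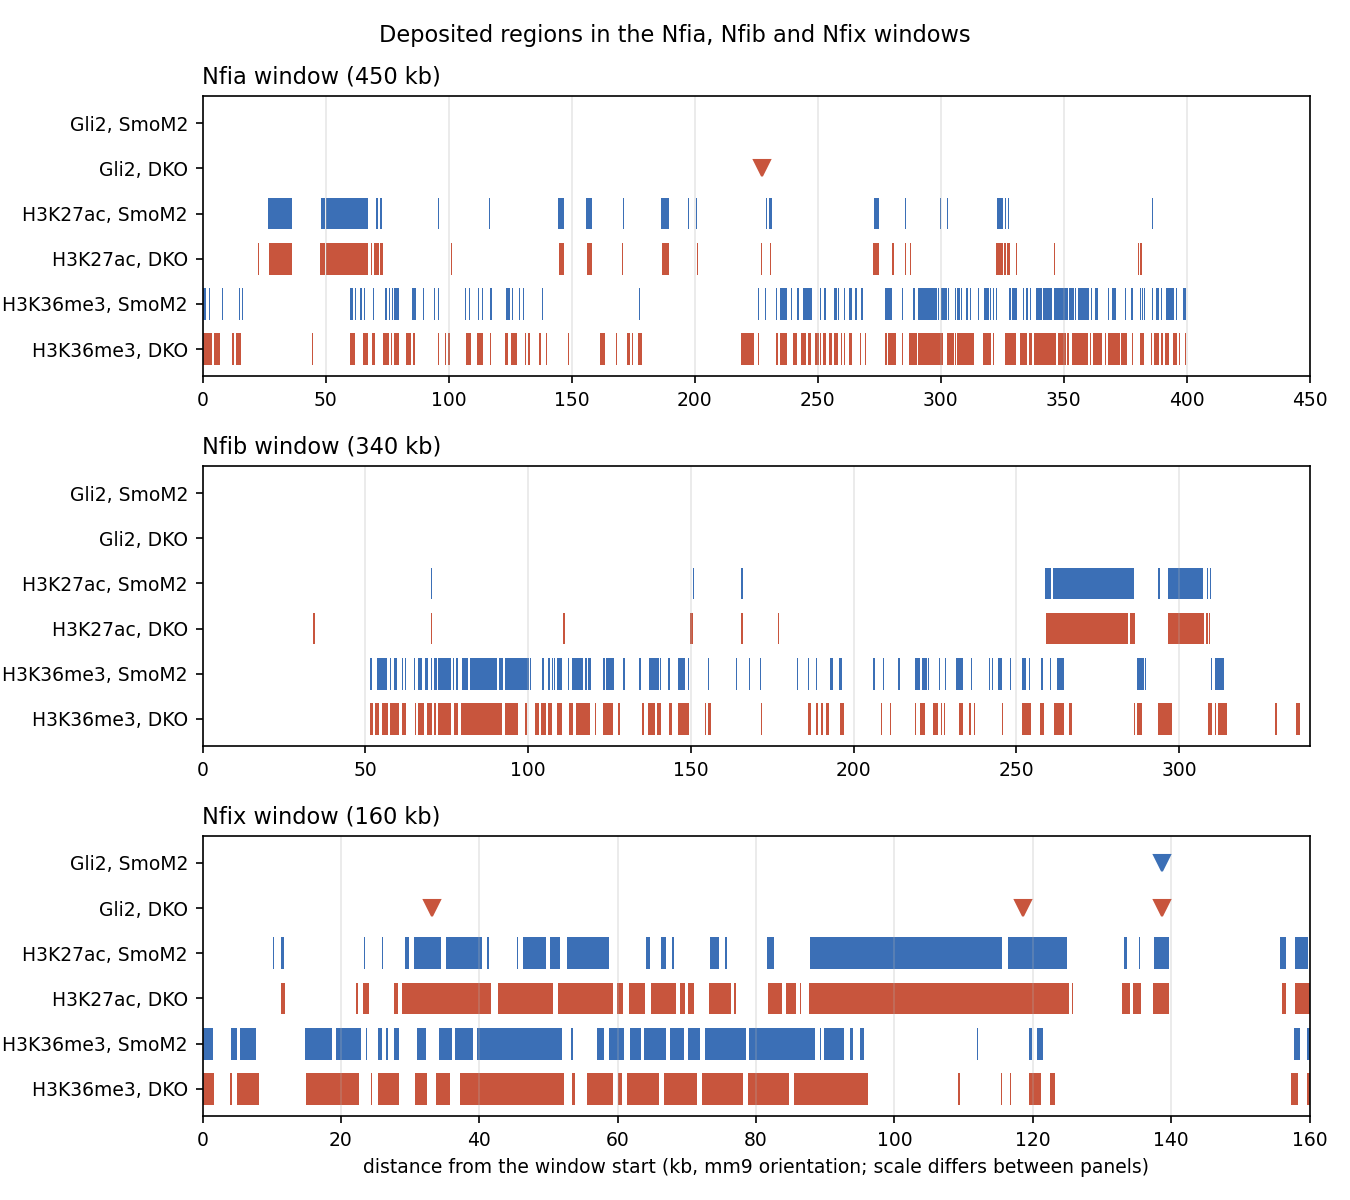
All regions of the 6 lists in the Nfia, Nfib and Nfix windows, by distance from the window start in kb (horizontal axis, a different scale in each panel). Triangles are Gli2 peaks and bars are H3K27ac or H3K36me3 regions drawn to scale, blue for SmoM2 and red for DKO tumours. At Nfix the Gli2 peaks sit within acetylated regions, and the widest acetylated block and the H3K36me3 regions lie side by side and partly overlap.

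H3K27ac, the mark of active promoters and enhancers, covered a large share of the Nfix window and much less of the other two. It covered 67.6 kb of the Nfix window in SmoM2 and 91.6 kb in DKO tumours, which is 42.3% and 57.2% of its length. At Nfib it covered 39.7 and 42.7 kb (11.7% and 12.6%), and at Nfia 48.2 and 52.7 kb (10.7% and 11.7%). The ratio of DKO to SmoM2 bases was 1.35 at Nfix, close to the 1.33 of the whole list, and lower at Nfia (1.09) and Nfib (1.07). Divided by the list-wide ratio, the latter became 0.820 and 0.805, so relative to the whole list both loci had less acetylated length in DKO tumours. A ratio of at least 1.5 was the threshold used for single stretches, and none of the 3 windows reached it. It was reached by 37.3% of 450 kb stretches, 37.6% of 340 kb stretches and 40.3% of 160 kb stretches with at least 1% of their bases acetylated in either genotype. Of those stretches, 75.4% had a ratio at or above that of Nfia, 74.0% one at or above that of Nfib and 49.2% one at or above that of Nfix. The order of the loci depended on gaps between regions. Joining H3K27ac regions at most 10 kb apart gave a ratio of 1.004 at Nfix (121.9 kb for SmoM2, 122.3 kb for DKO). At Nfia it was then 1.12 and at Nfib 1.29. The list-wide ratio of joined regions is not given.

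The Nfix locus was among the most densely acetylated of the genome in both genotypes. In the fixed grid of 4266 counted stretches of 160 kb, which happens to contain this window as one of its stretches, no other stretch had more H3K27ac bases in either genotype. With 160 kb placed in steps of 10 kb, 5 placements away from Nfix reached its value in SmoM2 and 15 in DKO tumours. The densest for SmoM2 held 70.4 kb (chromosome 8, 122930001–123090000) and the densest for DKO 102.8 kb (chromosome 7, 133080001–133240000). For their lengths Nfia and Nfib also ranked high, with 0.973% of stretches at or above the SmoM2 value of Nfia and 1.76% at or above its DKO value, and 1.22% and 1.92% for Nfib. Marked bases were among the values used to choose the loci, so nothing is read from these ranks.

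**Figure D2:**
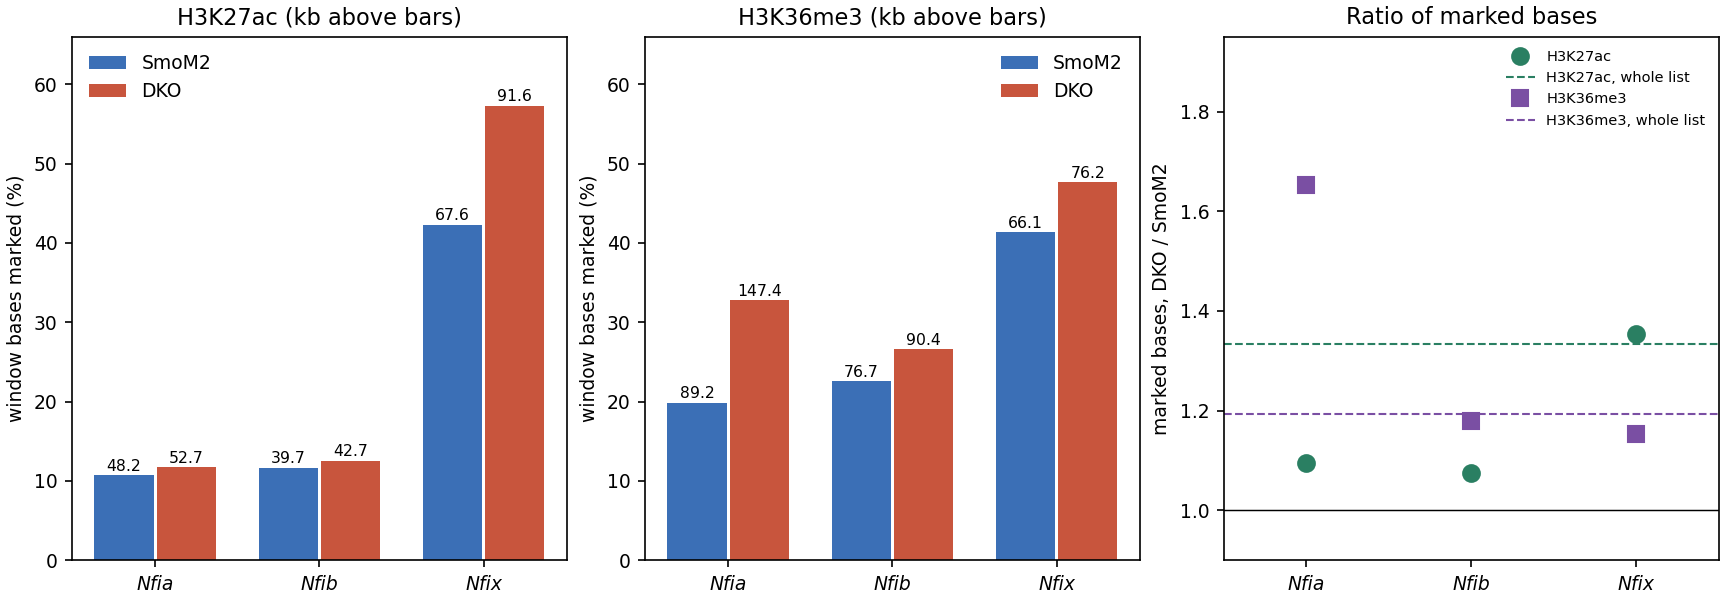
Share of each window marked by H3K27ac (left) and H3K36me3 (middle) in SmoM2 (blue) and DKO (red) tumours, in percent, with the marked kb above each bar, and the ratio of marked bases DKO over SmoM2 (right) beside the ratio of the whole lists (dashed lines). Each bar is 1 list, so there are no error bars. H3K36me3 at Nfia, at 1.65, is the point farthest above its dashed line.

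Each locus carried a few very wide acetylated regions that were called in both genotypes. At Nfix the widest region lay on chromosome 8 at 87287594–87325239 in DKO tumours (37.6 kb) and ranked 4 of 29504 by width. In SmoM2 tumours the same span was split into regions at 87287803–87315599 (27.8 kb, rank 5 of 21630) and 87316384–87324975 (8592 bp). At Nfib the widest lay on chromosome 4 at 82138950–82164285 in DKO (25.3 kb, rank 11) and 82141197–82166112 in SmoM2 tumours (24.9 kb, rank 6). A second Nfib region measured 11.2 kb (DKO) and 10.5 kb (SmoM2). At Nfia the widest lay on chromosome 4 at 97440308–97457260 in DKO (16953 bp, rank 28) and 97440387–97457168 in SmoM2 tumours (16782 bp, rank 12), with a second of 9570 bp and 9702 bp. The wide regions of Nfia and Nfib thus had nearly the same length in both genotypes.

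The difference in acetylated length was divided differently between wide and narrower regions at the 3 loci. Regions of at least 5 kb covered 26.5 kb of the Nfia window in each genotype (ratio 1.00) and 35.4 kb (SmoM2) and 36.5 kb (DKO) at Nfib (1.03). Narrower regions covered 21.7 and 26.2 kb at Nfia (1.21) and 4.30 and 6.18 kb at Nfib (1.44), so the difference lay in narrower regions at Nfia and in both kinds at Nfib. At Nfix the regions of at least 5 kb covered 47.6 kb (SmoM2) and 66.3 kb (DKO) (1.39). Narrower regions there covered 20.0 and 25.3 kb (1.27), so the difference lay in both kinds. Regions were classed by their width within each list. The SmoM2 region of 3999 bp, classed as narrower, lay inside the DKO region of 12866 bp. SmoM2 bases were largely retained at all 3: 87.6% of them at Nfia, 94.3% at Nfib and 97.1% at Nfix were also acetylated in DKO tumours, against 75.7% over the whole list. Of the DKO bases, 80.0%, 87.8% and 71.7% were acetylated in SmoM2 tumours, against 56.7% over the whole list. Bases acetylated in DKO tumours and not in SmoM2 tumours came to 10.5 kb at Nfia, 5.22 kb at Nfib and 25.9 kb at Nfix.

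Stretches with at least 1 kb acetylated in either genotype numbered 13 at Nfix, of which 6 had at least 1.5 times as many bases in DKO tumours and none at least 1.5 times as many in SmoM2 tumours. Over the genome these shares were 38.4% and 11.6%. At Nfia 3 of 14 passed that threshold in DKO and 1 in SmoM2 tumours, and at Nfib none of 6 passed it in either. With no threshold, acetylated length was larger in the DKO list for 11 stretches at Nfix, 10 at Nfia and 2 at Nfib. It was larger in the SmoM2 list for 0, 4 and 3, so Nfib leaned the other way. Genome shares for these counts are not given. The largest difference at Nfix was on chromosome 8 at 87260001–87270000, with 1.58 kb acetylated in SmoM2 and 7.20 kb in DKO tumours, followed by 87240001–87250000 with 4.02 and 8.89 kb. The stretch at 87290001–87300000, within the widest region, was acetylated over its full 10 kb in both. In the opposite direction, the stretch on chromosome 4 at 97620001–97630000 in the Nfia window had 1.61 kb (SmoM2) and 0.555 kb (DKO).

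H3K36me3, the mark of transcribed gene bodies, differed most at Nfia. Its regions covered 89.2 kb of the Nfia window in SmoM2 and 147 kb in DKO tumours, a difference of 58.2 kb and a ratio of 1.65. At Nfib they covered 76.7 and 90.4 kb (ratio 1.18) and at Nfix 66.1 and 76.2 kb (1.15), both just below the list-wide 1.19. Limited to regions of at least 3-fold enrichment, the Nfia ratio fell to 1.38 (78.5 kb for SmoM2, 108.7 kb for DKO). That is below the threshold of 1.5. The list-wide ratio under this limit is not given. The megabase that contains most of the Nfia window was already known to have a large H3K36me3 difference when these loci were chosen, so nothing is read from its place among stretches. Stretches with a ratio of at least 1.5 made up 6.49% of 450 kb, 7.86% of 340 kb and 12.4% of 160 kb stretches with at least 10% of their bases marked in either genotype.

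**Figure D3:**
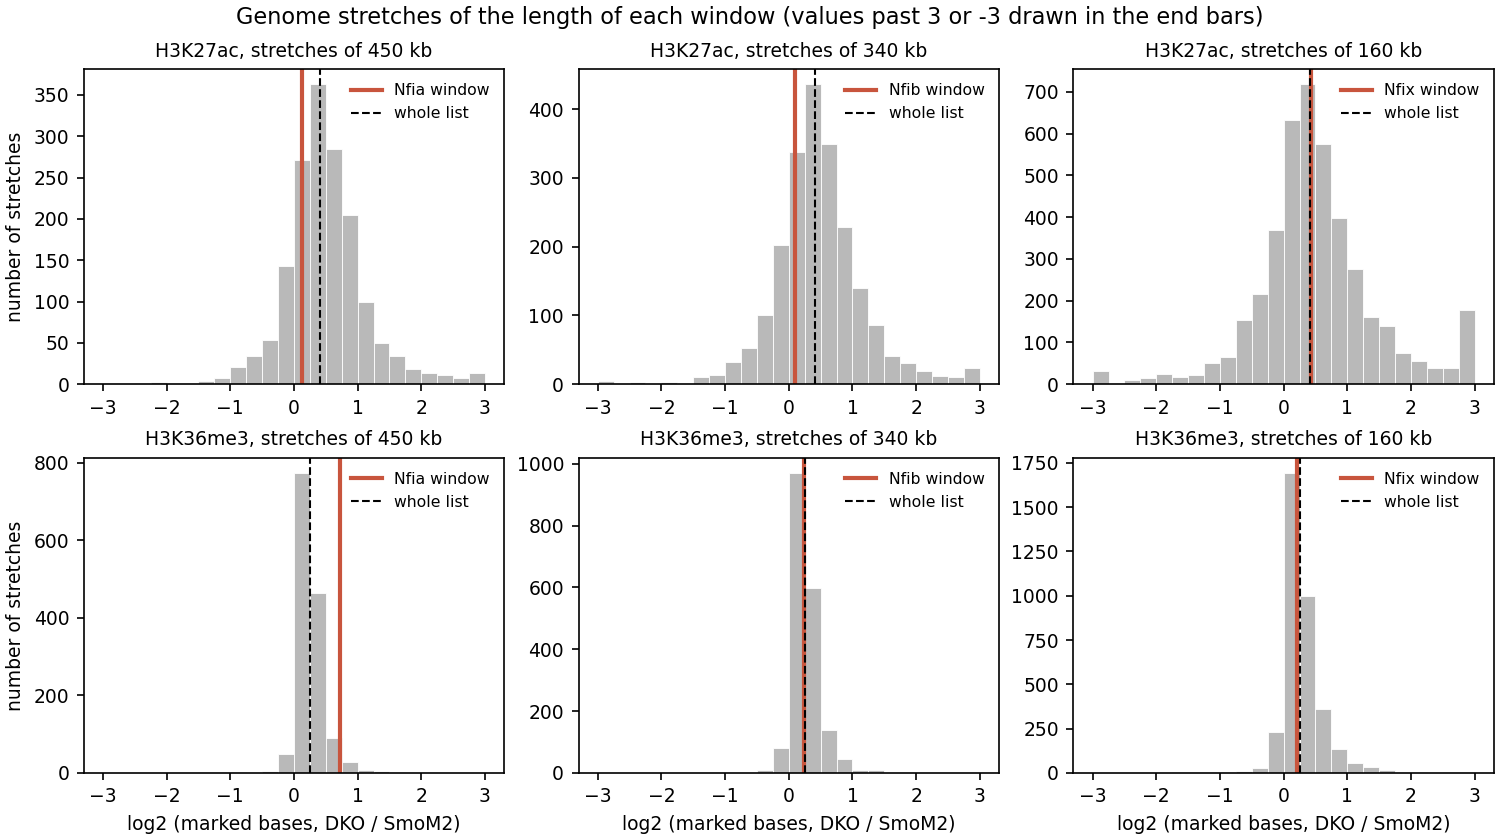
Distribution of the ratio of marked bases, DKO over SmoM2, on a log2 axis over all genome stretches of the length of each window (columns) for H3K27ac (top) and H3K36me3 (bottom), as numbers of stretches. The red line is the window and the dashed line the whole list. For H3K36me3 the Nfia line, at a ratio of 1.65, lies to the right of the dashed line at 1.19, and the Nfib and Nfix lines lie close to it. The Nfia value was known when the locus was chosen.

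At Nfia the larger H3K36me3 length was spread along the locus and came with fewer and wider regions. The number of regions was 98 in SmoM2 and 86 in DKO tumours, and their median width was 444 and 1095 bp. The whole lists differed in the same direction, with 89482 and 67064 regions of median width 614 and 926 bp, as did Nfib (73 and 60 regions) and Nfix (31 and 24 regions). Of the 29 stretches of 10 kb with at least 1 kb marked in either genotype, 19 had at least 1.5 times as many marked bases in DKO tumours and none at least 1.5 times as many in SmoM2 tumours, against 29.3% and 6.54% over the genome. The locus was chosen with this difference known and adjacent stretches are not independent, so nothing is read from that contrast. With the window cut into 3 parts of 150 kb, the marked length was 17.5 kb (SmoM2) and 36.5 kb (DKO) in the first part, 27.04 and 46.03 kb in the second and 44.6 and 64.9 kb in the last. The ratio thus declined along the window from 2.08 to 1.45. Marked length rose along it in both genotypes, and the difference in kb did not decline. The largest single difference was on chromosome 4 at 97750001–97760000, with 2.60 kb (SmoM2) and 7.15 kb (DKO), and the next at 97610001–97620000, with 0.439 and 4.64 kb. That latter stretch holds the DKO Gli2 peak of the window, which overlapped no H3K36me3 region of either genotype. A link between the peak and the difference was not tested.

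The H3K36me3 difference did not stop at the window edge. In the 450 kb before the Nfia window, H3K36me3 covered 25.8 kb (SmoM2) and 56.3 kb (DKO) (ratio 2.18), and in the 450 kb after it 10.2 and 13.9 kb (1.36). Of the DKO bases in the Nfia window 46.1% were also marked in SmoM2 tumours, against 71.3% over the whole list, and of the SmoM2 bases 76.2% were marked in DKO tumours, against 85.1%. The median −log10 q of the H3K36me3 regions at Nfia was 2.07 in both genotypes, beside 2.23 (SmoM2) and 2.11 (DKO) over the whole lists, and no region there exceeded 4.77. Joining regions at most 10 kb apart gave 283 kb (SmoM2) and 304 kb (DKO), a ratio of 1.08, below the threshold of 1.5. The marked domain at the far end of the window ended at nearly the same base in both genotypes, at 97789726 in SmoM2 and 97789780 in DKO tumours.

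At Nfix the H3K36me3 domain had a similar extent in the 2 genotypes. At Nfib, regions joined when at most 10 kb apart formed shorter pieces in DKO tumours, without less marked length there. The widest Nfix region lay on chromosome 8 at 87237223–87252230 in DKO (15008 bp) and 87239702–87251942 in SmoM2 tumours (12241 bp). Joined regions ran from 87190974 to 87296257 in DKO and from 87192131 to 87295615 in SmoM2 tumours, and so began before the window. At Nfib the widest region lay on chromosome 4 at 81959406–81972026 in DKO (12.6 kb) and 81962152–81970562 in SmoM2 tumours (8411 bp). Joined regions there ran from 81931390 to 82144605 in SmoM2 tumours, a span of 213 kb, whereas the longest DKO piece ran from 81931580 to 82036047, a span of 104 kb, and the next spanned 58.7 kb. Of the 24 counted stretches of 10 kb at Nfib, 9 had at least 1.5 times as many marked bases in DKO tumours and 2 at least 1.5 times as many in SmoM2 tumours. At Nfix these counts were 2 and 0 of 12, against the 29.3% and 6.54% over the genome. With no such threshold, 18 of 24 at Nfib and 10 of 12 at Nfix had more marked bases in DKO tumours, and 6 and 1 had fewer. No genome share is given for these counts, and the DKO list covers 1.19 times as many bases. The largest difference at Nfib was on chromosome 4 at 82170001–82180000, with no H3K36me3 in SmoM2 and 4.26 kb in DKO tumours. In the opposite direction, the Nfib stretch at 81970001–81980000 had 9.06 kb (SmoM2) and 6.36 kb (DKO).

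**Figure D4:**
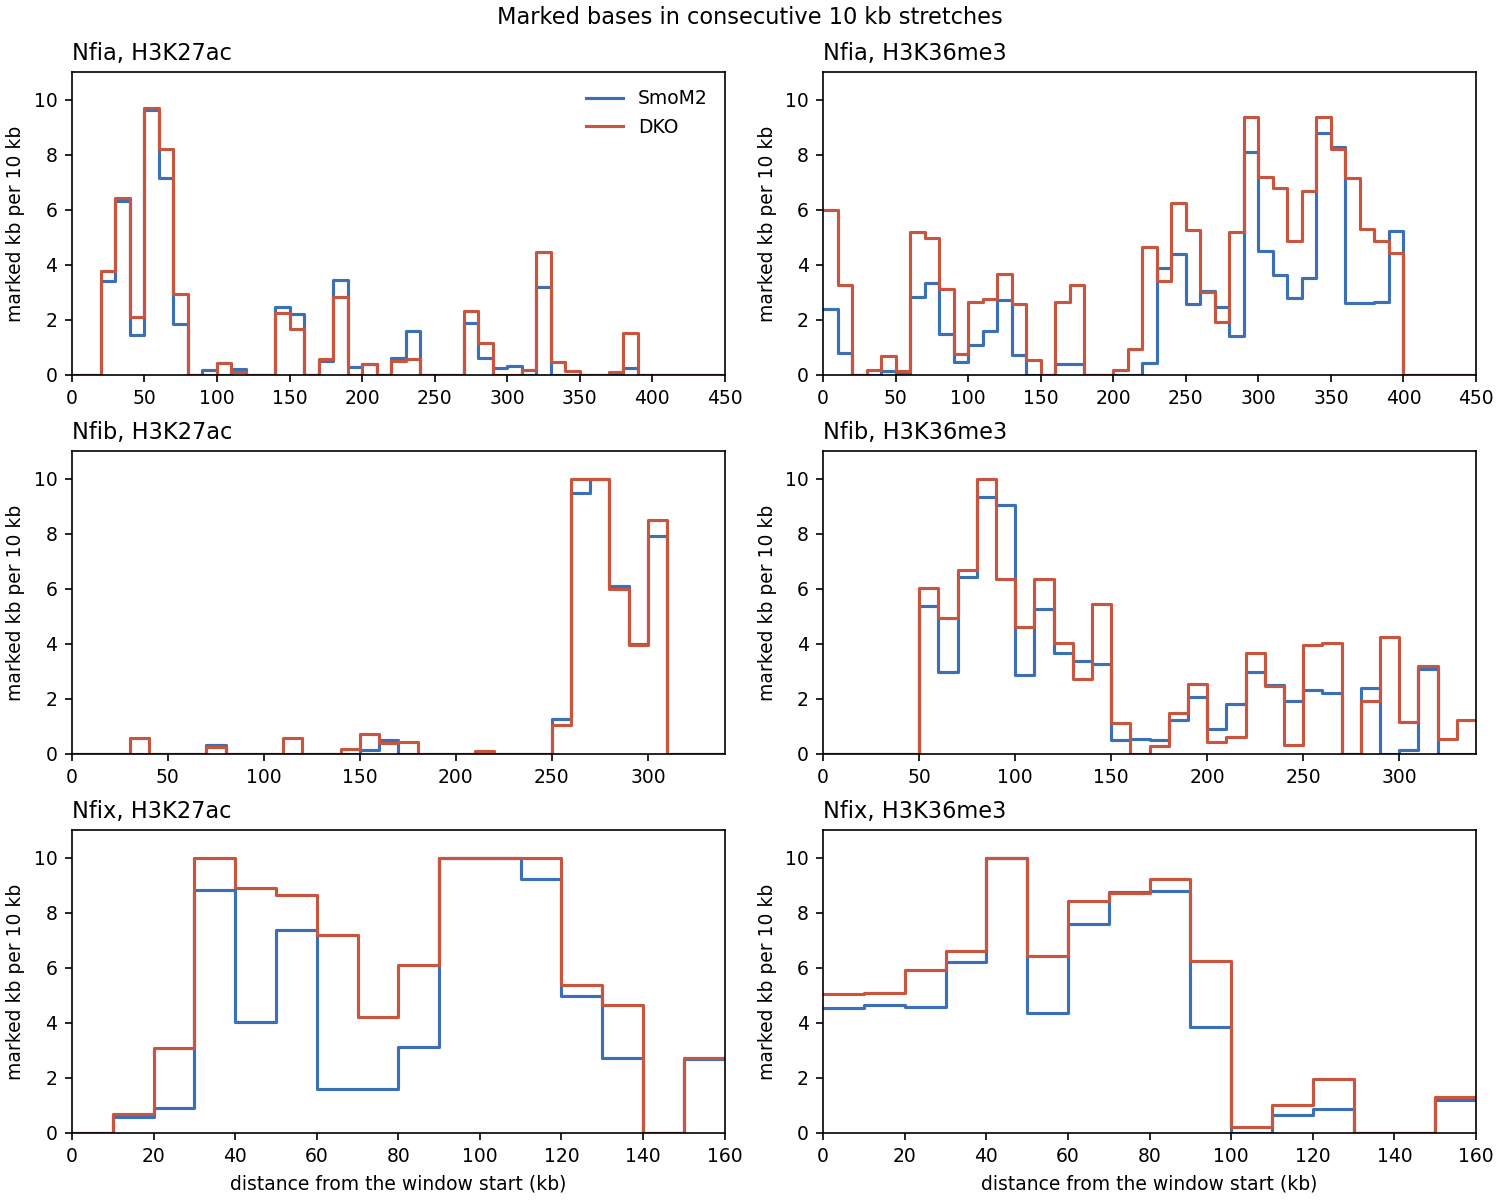
Marked kb in consecutive 10 kb stretches along the Nfia, Nfib and Nfix windows (rows) for H3K27ac (left) and H3K36me3 (right), in SmoM2 (blue) and DKO (red) tumours, against distance from the window start in kb. The H3K36me3 line of DKO tumours is above that of SmoM2 tumours in 24 of the 29 Nfia stretches with at least 1 kb marked and below it in 5. The wide acetylated blocks of Nfia and Nfib nearly coincide.

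The 2 histone marks had different median positions in the Nfia and Nfib windows, and at Nfia they overlapped widely in range. The median acetylated base was 63.3 kb from the window start in SmoM2 and 64.4 kb in DKO tumours at Nfia, and the median H3K36me3 base 300.1 and 291 kb. At Nfib the order was reversed, with medians of 278 and 277 kb for H3K27ac and 115 and 121 kb for H3K36me3. At Nfix the marks interleaved, with medians of 95.8 and 85.3 kb for H3K27ac and 57.9 and 58.3 kb for H3K36me3.

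Acetylated bases that also carried H3K36me3 were a larger share at Nfix than at the other loci. They made up 34.5% of the H3K27ac bases at Nfix in SmoM2 tumours (23.3 kb) and 52.6% in DKO tumours (48.2 kb), against 5.14% and 8.20% over the whole lists. At Nfia the shares were 6.66% and 17.0%, and at Nfib 6.63% and 15.6%. H3K36me3 itself covered 41.3% (SmoM2) and 47.6% (DKO) of the Nfix window, 19.8% and 32.8% at Nfia and 22.6% and 26.6% at Nfib. The overlap at Nfix was thus below that cover in SmoM2 and above it in DKO tumours. At Nfia and Nfib it was below in both. Of the 160 kb stretches with at least 1% of their bases acetylated, 1.77% reached the Nfix overlap share in SmoM2 and 0.676% in DKO tumours. These stretches were not matched for the density of either mark. For Nfia, 21.1% and 9.46% of 450 kb stretches reached its share, and for Nfib 18.5% and 10.9% of 340 kb stretches. Marked bases of these lists were among the values used to choose the loci, so nothing is read from these shares. Both lists of DKO tumours covered more bases than those of SmoM2 tumours, and the part of that in the larger overlap was not tested.

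The acetylation found in DKO and not in SmoM2 tumours at Nfix lay largely inside the H3K36me3 domain. Of those 25.9 kb, 18.9 kb (72.8%) lay in H3K36me3 of DKO tumours, against 10.3% of such bases over the whole list, 34.95% at Nfia and 21.4% at Nfib. H3K36me3 of DKO tumours covered 47.6% of the Nfix window. Where H3K36me3 was called in both genotypes at Nfix (60.0 kb), H3K27ac covered 21.3 kb (SmoM2) and 36.9 kb (DKO), a ratio of 1.74, and elsewhere in the window 46.4 and 54.7 kb, a ratio of 1.18. Over the whole lists these ratios were 1.63 and 1.32, so acetylated length was also more unequal inside shared H3K36me3 genome-wide. At Nfia the ratios were 1.58 (2.00 and 3.15 kb) and 1.07, and at Nfib 0.984 (2.31 and 2.28 kb) and 1.08.

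The sequence before the Nfix window was less marked in DKO tumours, unlike the window itself. In the 160 kb before it, H3K27ac covered 13.5 kb (SmoM2) and 10.9 kb (DKO) (ratio 0.802) and H3K36me3 39.8 and 22.2 kb (0.557), both lower in DKO tumours. In the 160 kb after it, H3K36me3 covered 53.4 and 50.5 kb (0.946) and H3K27ac 2.98 and 4.45 kb (1.49). Beyond the Nfib window, an acetylated region of 9809 bp (SmoM2) and 9095 bp (DKO) began 9.56 and 9.96 kb from the edge and is not counted in it. Of the 512 regions counted, 6 crossed a window edge, 1 at Nfia and 5 at Nfix, and only their bases inside the window were summed.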

How the data were processed

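ChIP-seq lists of Gli2, H3K27ac and H3K36me3 were analysed for SmoM2 and DKO medulloblastomas, with genotype and antibody taken from the labels. The submitters' processing notes name mm9, MACS2, bedtools, BWA and Trimmomatic 0.36, without roles or settings. Per the labels, both libraries of a group share 1 list, and no source used here says how they were merged. The authors deposited fold enrichment as a ratio over the caller's background, q values as −log10, a score (not used), and other columns with start, end and, for Gli2, summit. The labels' protocol text also names an Olig2 antibody on the beads.

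Bases were summed within windows and compared with consecutive genome stretches of the same length, without tests. Overlap meant at least 1 shared base. A Gli2 peak of the SmoM2 list outside chromosomes 1 to 19, X and Y was not counted. The members, windows and thresholds were chosen with earlier results of these data known. Every Gli2 peak in a window was named, as were the widest regions and the 10 kb stretches with the largest differences. Alternatives were stricter q and fold limits, joined regions, wider windows, scaling by the list-wide ratio and equal numbers of Gli2 peaks. Coverage and overlap code was tested on simulated regions (120 of 120 checks matched a base-by-base count). Python 3.11.15, numpy 2.4.6, pandas 2.3.3 and matplotlib 3.10.9 were used. Promoter sequences came from RefSeq (GRCm38.p6).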

Additional observations from a re-analysis of the deposited data

How the results depend on the processing

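Of 85 values under other settings, 71 kept their direction and stayed within 1.5 times the reported value, and 14 did not. Divided by the list-wide ratio, the H3K27ac ratio became 0.820 at Nfia and 0.805 at Nfib, and the H3K36me3 ratio 0.988 at Nfib and 0.967 at Nfix, all below 1. With regions at most 10 kb apart joined, the H3K36me3 ratio was 1.08 at Nfia and 0.913 at Nfib, and with regions of at least 3-fold enrichment 0.957 at Nfib. Among the values that stayed within the limit, the H3K36me3 ratio at Nfia was 1.38 with 3-fold enrichment. The H3K27ac ratio with regions so joined was 1.004 at Nfix and 1.29 at Nfib. With a −log10 q limit of 5, the H3K36me3 ratio at Nfix was 47 (0.354 kb for SmoM2, 16.6 kb for DKO), the SmoM2 Gli2 count at Nfix was 0, and no H3K36me3 region was left at Nfia or Nfib to give a ratio. With as many DKO as SmoM2 Gli2 peaks, 0 DKO peaks remained at Nfia and 1 at Nfix. With stretches of at least 1 marked base, the share with an H3K36me3 ratio of at least 1.5 was 22.5% at the Nfia, 23.7% at the Nfib and 26.4% at the Nfix length. The causes of these changes were not tested. No paired analysis was possible because the 2 libraries of a group are merged in 1 list, which also kept single replicates from being left out. The lists state no read numbers, so what depth limits is unknown.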
